A study of Mus musculus with 15 samples.

Results

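The 5 genes described here, Mme, Anpep, Dpp4, Enpep and Ace, encode peptidases that sit in the plasma membrane with their active sites outside the cell. They were found by gene symbol in every table that lists them, and are 5 of the 27495 Ensembl genes listed in any table of the series. The choice was made with values from these libraries known. Differences of these 5 genes between glandular and luminal epithelium, and between U-OEx and the other luminal groups, are therefore described with no test.

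The series holds RNA sequencing libraries of mouse uterine epithelium taken on day 4, with 3 libraries in each of 5 groups. The groups are wild-type luminal epithelium (LE, the lining of the lumen), wild-type glandular epithelium (GE, the lining of the glands), LE and GE named E-OEX, and LE named U-OEx. The labels give E-OEX and U-OEx the same genotype, overexpression of the receptor gene Notch1. They do not say what the names stand for, which promoter or Cre line drove the transgene, the strain or age of the mice, or whether libraries came from separate animals, so p-values measure the spread between libraries, which may be technical.

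Membrane peptidases trim small peptides at the cell surface, and so set how long a peptide hormone acts near its receptor. Mme (neprilysin, CD10) cleaves enkephalins, substance P, natriuretic peptides, endothelins and bradykinin. Anpep (aminopeptidase N, CD13) removes neutral residues from the amino end of peptides, and Enpep (aminopeptidase A) removes acidic residues and turns angiotensin II into angiotensin III. Dpp4 (CD26) takes dipeptides off peptides with proline or alanine in the second position, such as incretins and Cxcl12. Ace makes angiotensin II from angiotensin I and breaks down bradykinin. In the human uterus Mme is a classical marker of endometrial stroma, and Enpep and Ace are known from pericytes and endothelium, respectively.

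The sequence before the start is shown for Mme, Enpep and Ace, the 3 genes with values in more than 1 group, because these are the genes compared across genotypes and epithelia below. The RefSeq promoter table (GRCm38.p6) held all 5 genes, with 8 starts. Capitals mark every match, on either strand, to GGGCGG (the GC box) or TATAAA (the TATA box). Sequences run 5′ to 3′ on the strand of the gene and end at the base before the annotated start, or before the first annotated exon base for Ace.
Mme, chr3:63294961-63295210, plus strand: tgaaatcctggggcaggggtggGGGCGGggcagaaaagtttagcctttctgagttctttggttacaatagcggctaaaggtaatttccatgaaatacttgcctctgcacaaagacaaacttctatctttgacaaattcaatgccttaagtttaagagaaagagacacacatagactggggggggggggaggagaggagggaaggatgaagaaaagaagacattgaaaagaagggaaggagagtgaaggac
Enpep, chr3:129332750-129332999, minus strand: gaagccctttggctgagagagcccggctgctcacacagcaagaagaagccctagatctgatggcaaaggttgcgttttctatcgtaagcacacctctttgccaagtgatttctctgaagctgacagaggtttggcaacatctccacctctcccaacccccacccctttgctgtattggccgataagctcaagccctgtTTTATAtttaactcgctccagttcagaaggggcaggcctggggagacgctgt
Ace, chr11:105967698-105967944, plus strand: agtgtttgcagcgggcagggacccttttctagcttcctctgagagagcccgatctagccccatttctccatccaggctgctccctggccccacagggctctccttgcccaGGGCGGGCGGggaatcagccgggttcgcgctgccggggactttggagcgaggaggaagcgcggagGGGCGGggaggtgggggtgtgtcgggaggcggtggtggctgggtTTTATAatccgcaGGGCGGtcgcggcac

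The Mme window belongs to the most upstream of 3 RefSeq starts, and lies inside the span of the GENCODE M21 gene (chr3:63241537-63386030, plus strand) without touching an exon. The other Mme windows overlapped annotated exons and are not printed. The printed Mme window had 1 GC box, from -228 to -223 relative to its start, and the windows of the other Mme starts had 2 each. None of the 3 held TATAAA. Enpep carried TATAAA on the opposite strand from -52 to -47. At its upstream start Ace carried TATAAA on the opposite strand from -31 to -26, with 4 GC boxes, of which those starting at -140 and -136 overlap. The window of another Ace start, at chr11:105975189, held neither motif and is not printed. Among all 32851 windows of 250 bases in that table, 32.7% held a GC box and 12.4% a TATAAA. The core letters bound by RBPJ, the DNA-binding partner of Notch, are TGGGAA. They were in 1 of the 8 windows, that of Dpp4 (-183 to -178, opposite strand), and in 21.6% of all windows. CACGTG, an E box bound by Hes and Hey repressors, was in none of the 8 and in 6.02% of all windows. These matches describe the letters only.

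Values are the deposited scaled read counts, in which 1 read counted for about 1 unit. The wild-type tables list 6414 genes and those of E-OEX list 4903 genes, nearly all at least 2-fold apart between GE and LE. The U-OEx tables list 27946 genes without such a selection. Wild type, E-OEX and U-OEx thus have separate sets of tables. Any difference in how the sets were made cannot be told apart from the differences between these groups. Joint scaling across sets rests on shared genes, which passed this selection in at least 1 set. Reads in the listed genes ran from 1980800 to 4797424 in wild-type and E-OEX libraries and from 13541644 to 14981505 in U-OEx libraries. Mme was listed in the wild-type and U-OEx tables, Enpep and Ace in all, and Anpep and Dpp4 in the U-OEx tables. In the other tables these genes were not analysed. The labels were compared with markers, of which only the direction could inform, since the listed genes were selected to differ. The 5 luminal markers summed to 31950 or more in each wild-type LE library and to 963 or less in each wild-type GE library. The 4 glandular markers that could be summed ran the other way. In E-OEX the luminal sums were 13627 to 17867 in LE and 1086 to 1951 in GE. The glandular sums were 108 to 1008 in E-OEX LE and 4370 to 5369 in E-OEX GE. GE libraries also carried RNA of the tissue below the epithelium: 6 stromal markers summed to between 33746 and 99388 in the 6 GE libraries and to between 363 and 7656 in the 9 LE libraries. The highest LE sum was in wild-type LE replicate 2. In these bulk libraries fewer cells of a type and less RNA per cell cannot be told apart.

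Mme had some of the highest values among the listed genes in the wild-type epithelium and was close to undetected in U-OEx LE. Wild-type LE gave 41127, 29918 and 55516 (mean 42187 ± 12832, SD, n = 3), which placed Mme 9th, 12th and 4th of 6414 genes and at 0.618 to 1.09% of all listed signal. These places are not corrected for length, and the exons of Mme cover 11542 bases. Wild-type GE gave 23641, 18220 and 17866 (19909 ± 3237, SD, n = 3). U-OEx LE gave 23.0, 7.998 and 10.6, from 25, 9 and 11 reads. Every wild-type library was far above every U-OEx library, and the nearest pair of values was 1240-fold apart after joint scaling.

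After scaling the shared genes together, mean Mme was 3088-fold lower in U-OEx LE than in wild-type LE, a log2 fold change of -11.58 (SE 0.41). That was the lowest of the 5949 genes compared. Per kilobase of exon, Mme went from 3655 ± 1112 in wild-type LE to 1.20 ± 0.694 in U-OEx LE (SD, n = 3). The same contrast moved much of the transcriptome: 56.9% of the genes passed an adjusted p of 0.05 in limma, and the groups did not overlap for 63.8%. Nothing is read from those shares for Mme, since it was chosen on this contrast.

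The epithelial genes Epcam, Cdh1 and Krt19, which encode an adhesion molecule, E-cadherin and a keratin, were used as a yardstick after the values had been seen. Mme stood at 200.3 to 538% of Epcam in wild-type LE, at 307 to 430% in wild-type GE and at 0.108 to 0.277% in U-OEx LE. Relative to Cdh1 it was 142 to 287% in wild-type LE and 0.0949 to 0.277% in U-OEx LE. Relative to Krt19 the corresponding ranges were 165 to 322% and 0.0311 to 0.128%. The summed markers of the luminal lining were lower in U-OEx LE as well. The 5 luminal markers summed to between 31950 and 58065 in wild-type LE and to between 7055 and 8562 in U-OEx LE, where 3 of the 5 were lower and 1 higher in limma, with a median log2 fold change of -1.07 beside 0.09 for all genes. Calb1, a calcium-binding protein, had the largest change of the 5 (-7.03, adjusted p = 8.11e-06), followed by Lpar3, a lysophosphatidic acid receptor (-4.70, adjusted p = 6.50e-06). The sum of the 4 glandular markers in every table was 45.6 to 81.9 in wild-type LE and 1011 to 1388 in U-OEx LE. Of 5 glandular markers tested, 3 rose and 1, Spink1, fell. Mme was 70.8 to 112% of the luminal sum in wild-type LE and 0.0934 to 0.278% in U-OEx LE. The part of the make-up of the epithelium in the Mme difference was not tested.

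Between the wild-type epithelia the difference in Mme was small, and its ratios to epithelial genes did not all follow it. GE was lower than LE by a log2 fold change of -1.05 (SE 0.24), and the 2 groups did not overlap, with the nearest values 1.27-fold apart. The tables hold genes selected for such a difference, and 95.9% of their genes did not overlap. Set against Epcam, the wild-type means were 391 ± 173% in LE and 369 ± 61.2% in GE (SD, n = 3) and the ranges overlapped. Set against Krt19, GE was higher, at 965 to 1379%. Epcam, Cdh1 and Krt19 are listed under the same selection, and all 3 were themselves lower in GE. Dividing by them raises the GE ratios, so these ratios do not show how Mme itself differed. Stromal markers were higher in GE, where Mme was lower. Wild-type LE replicate 2, the LE library with the most stromal RNA, had the lowest Mme of the 3. It also had the lowest sum of the luminal markers of the 3, 31950. The part of stromal or luminal RNA in these Mme values was not tested.

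**Figure D1:**
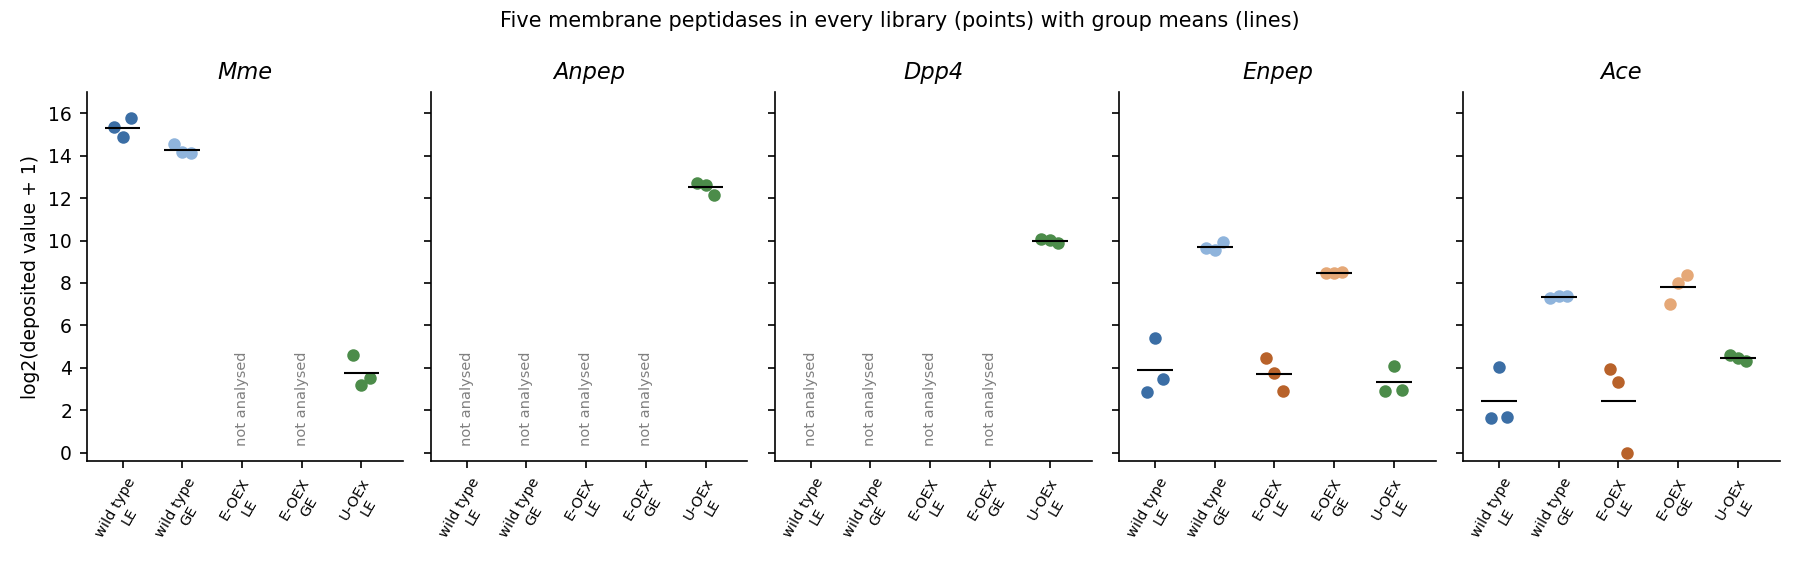
Each panel shows 1 gene, with log2(deposited value + 1) on the vertical axis, a point for each of 3 libraries per group and a line at the group mean. Mme is near 15 on this scale in wild-type LE and near 4 in U-OEx LE, while Enpep and Ace are high in both glandular groups. Groups whose tables were not analysed for a gene are marked as such.

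Anpep and Dpp4 were measured in U-OEx LE, where both were far above the other 3 members. Anpep gave 6773, 6250 and 4578 (5867 ± 1146, SD, n = 3). Dpp4 gave 1083, 1049 and 936 (1023 ± 76.8, SD, n = 3). The 3 libraries of each gene lay close together, with Dpp4 the steadier.

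Levels of different genes can be compared only per length. On the scale of deposited value per kilobase of exon, Anpep had 1419 ± 277 in U-OEx LE (SD, n = 3), place 359 of 27131 genes and the highest mean of the 36 listed members of a wider list of 40 membrane peptidases and relatives. It was followed by Ece1, which makes mature endothelin, at 840 ± 269. Anpep was above Ece1 in each library. Their ranges overlapped only between libraries, since the Ece1 value of replicate 1, 1151, was above the Anpep value of replicate 3, 1107. Dpp4 had 162 ± 12.2, level with its cytosolic relative Dpp9 at 162 ± 4.18. Ace had 4.004 ± 0.357, Enpep 2.06 ± 1.16 and Mme 1.20 ± 0.694. The last 2 overlapped in their libraries, and Ace was above both in each library. In wild-type LE the order was the reverse at its ends: Mme had 3655 ± 1112, Enpep 4.05 ± 4.05 and Ace 1.24 ± 1.44.

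**Figure D2:**
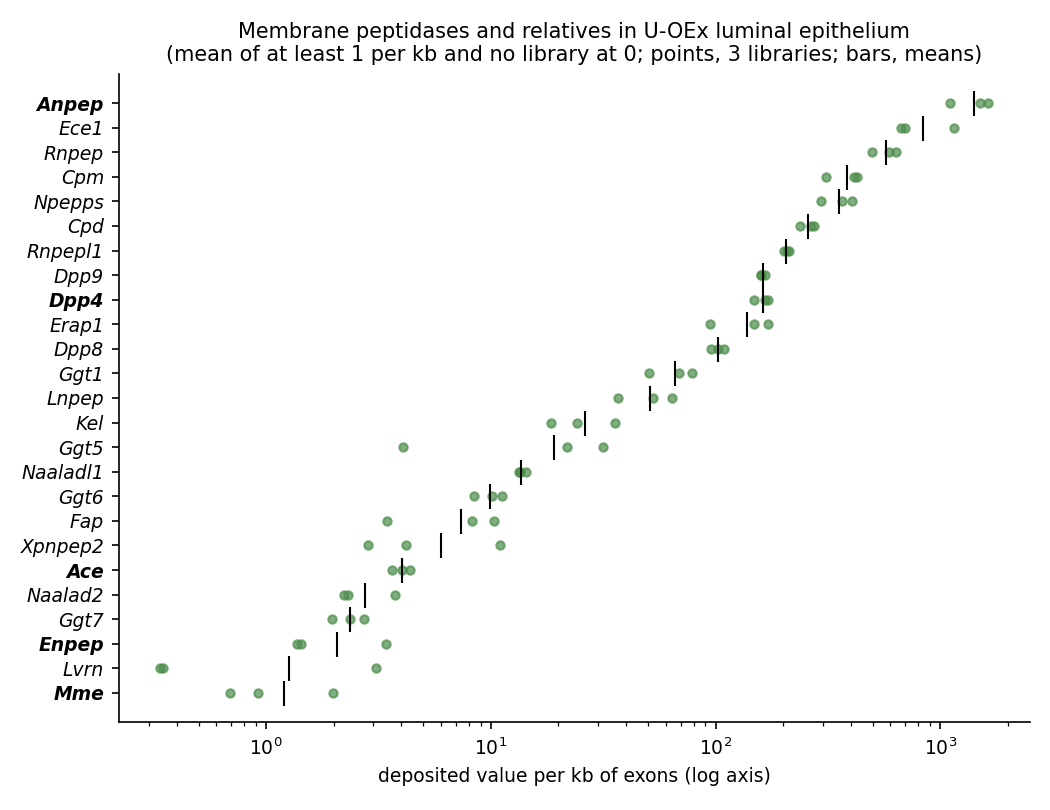
Deposited value per kilobase of exon (log axis) in U-OEx LE for 25 genes of the peptidase list with a mean of at least 1 and reads in every library; points are the 3 libraries, bars the means, and the 5 genes of the report are in bold. Anpep is at the top with a mean of 1419, Dpp4 is in the upper part at 162 and Mme is last at 1.20.

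Enpep was a gland-side transcript in both genotypes, and its glandular level was lower in E-OEX. Wild-type GE gave 789, 739 and 973 (834 ± 123, SD, n = 3) against 6.22, 41.0 and 10.1 in wild-type LE. E-OEX GE gave 351.5, 349.5 and 364.4 (355 ± 8.10, SD, n = 3) against 21.0, 12.7 and 6.48 in E-OEX LE. U-OEx LE gave 6.43, 16.0 and 6.72. All 6 glandular libraries were above all 9 luminal ones, as the tables' selection favours: GE and LE did not overlap for 95.9% of genes listed in wild type and 89.9% of those in E-OEX. The 3 luminal groups overlapped one another.

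The difference between the glandular groups passed the test. On the jointly scaled reads Enpep averaged 310.5 ± 24.9 for E-OEX GE against 1007 ± 171 for wild-type GE (SD, n = 3). The log2 fold change was -1.68 with an SE of 0.24 and an adjusted p of 0.000988 in limma, and 3 of 3 E-OEX libraries were lower. The nearest values were 2.54-fold apart, and 40.5% of genes had groups that did not overlap. In this comparison 23.5% of 2851 genes passed and 13.8% passed as lower, so Enpep was 1 of 393 genes that fell. The call was kept when any 1 library was left out (adjusted p from 0.000582 to 0.0137), and on the deposited scale the change was -1.22 (adjusted p = 0.00451). In a single fit over all 5 groups the change was -1.61 with an adjusted p of 0.160.

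The summed glandular markers were lower in E-OEX GE too. The 4 that could be summed gave 19587 to 27496 for wild-type GE and 4370 to 5369 for E-OEX GE, and 3 of the 4 fell in limma, with a median log2 fold change of -2.67 beside 0.05 for all genes tested. Those were Spink1, a protease inhibitor (-7.55, adjusted p = 0.000492), Lif, a cytokine needed for implantation (-3.46, adjusted p = 0.000144), and the chemokine gene Cxcl15 (-1.88, adjusted p = 0.000482). Foxa2, a transcription factor of the glands, had -0.53 (adjusted p = 0.0982). Enpep was 3.29 to 3.77% of the glandular sum for wild-type GE and 6.51 to 8.04% for E-OEX GE, a ratio computed after the values had been seen.

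The summed markers of smooth muscle and pericytes, of which pericytes are known for Enpep, were higher in E-OEX GE. The 7 markers of smooth muscle and pericytes summed to between 5057 and 8322 for wild-type GE, and E-OEX GE had sums of 18377 to 20386. Of those 7, Acta2, Cnn1 and Myh11, which encode contractile proteins, rose, with log2 fold changes of 1.65, 1.89 and 1.66 (limma adjusted p of 0.0037, 0.00381 and 0.00333), and none fell. The other 4, Des and the markers Rgs5, Cspg4 and Pdgfrb, did not pass, so a rise of pericyte markers was not resolved. The median log2 fold change of the 7 was 0.67, beside 0.05 for all genes tested. Enpep was 9.97 to 15.6% of that sum for wild-type GE but 1.73 to 1.91% for E-OEX GE, also computed after the values had been seen. In LE the same markers summed to between 16.2 and 349, with Rgs5, a pericyte marker, at 0 in each E-OEX LE library. The part of these cells, or of the glandular markers' fall, in the Enpep difference was not tested.

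In luminal epithelium no Enpep difference was resolved. The log2 fold change of E-OEX against wild-type LE was -0.35 (95% interval -2.16 to 1.47, limma adjusted p = 0.820), in a comparison where 10.7% of 2600 genes passed. That of U-OEx against wild-type LE was -0.61 (SE 0.73), with overlapping groups. Wild-type LE replicate 2 had the highest Enpep value of the luminal libraries, 41.0, and also the highest luminal sum of the 7 smooth muscle and pericyte markers, 349. Without it the E-OEX value became 0.33 (adjusted p = 0.830), and without E-OEX LE replicate 3 it became 0.20 (adjusted p = 0.909).

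The glandular excess of Enpep was 5.79 (SE 0.62) on the log2 scale in wild type and 4.76 (SE 0.50) in E-OEX. The test of the difference between these, the interaction of genotype and epithelium, gave -1.03 (95% interval -2.85 to 0.79, limma adjusted p = 0.511), while 10.7% of 2933 genes passed it. A genotype effect on Enpep that differs between GE and LE was thus not resolved.

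Ace shared the glandular excess of Enpep but not its fall. Wild-type GE gave 155, 166 and 168 (163 ± 7.07, SD, n = 3), while E-OEX GE gave 128, 256 and 333 (239 ± 103, SD, n = 3). Wild-type LE gave 2.07, 15.4 and 2.24, and E-OEX LE gave 14.6, 9.08 and 0. U-OEx LE gave 23.0, 21.3 and 19.2 (21.2 ± 1.89, SD, n = 3). The glandular groups overlapped each other and lay above every luminal library, and the U-OEx libraries lay above the other 6 luminal ones.

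The glandular excess of Ace was 4.91 (SE 0.68) on the log2 scale in wild type and 5.37 (SE 0.997) in E-OEX. E-OEX GE and wild-type GE differed by -0.02 (95% interval -0.74 to 0.71, limma adjusted p = 0.976). For E-OEX LE against wild-type LE the value was -0.13 (95% interval -2.60 to 2.34, adjusted p = 0.951). The interaction was 0.46 (95% interval -2.37 to 3.29, adjusted p = 0.895). The intervals are wide in LE, where Ace rests on few reads: without E-OEX LE replicate 3 the LE value was 1.20 (adjusted p = 0.440), and without wild-type LE replicate 2 it was 0.61 (adjusted p = 0.798).

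In U-OEx LE the Ace log2 fold change was 2.01 (SE 0.70) over wild-type LE and 1.97 (SE 0.99) over E-OEX LE. Neither pair of groups overlapped, as was so for 63.8% and 38.2% of genes in these comparisons, with nearest values 1.30-fold and 1.28-fold apart. Both comparisons share the U-OEx libraries. Without E-OEX LE replicate 3, the library at 0, the value over E-OEX LE was 0.71.

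Ace levels were read beside endothelial markers. The 5 markers summed to between 2217 and 3625 in wild-type GE, between 2561 and 7599 in E-OEX GE, and between 77.6 and 332 in the 9 LE libraries. Within E-OEX GE the library with the most Ace, replicate 3, had the highest endothelial sum and the one with the least Ace, replicate 1, the lowest. Wild-type GE did not keep this order: replicate 2 had the lowest endothelial sum, 2217, and replicate 1 the least Ace, 155. Ace was 4.63 to 7.48% of that sum for wild-type GE against 4.38 to 6.61% for E-OEX GE, so the 2 ranges overlapped. In U-OEx LE it was 9.06 to 16.4%, in wild-type LE 1.07 to 7.65% and in E-OEX LE 0 to 18.8%, a range that spans that of U-OEx LE. E-OEX LE had an Ace value of 0 in replicate 3, its library with the highest endothelial sum, and Emcn, an endothelial marker, was at 0 in each E-OEX LE library. The summed smooth muscle and pericyte markers followed the order of Ace in both glandular groups. The part of endothelial, smooth muscle or pericyte RNA in these levels was not tested.

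**Figure D3:**
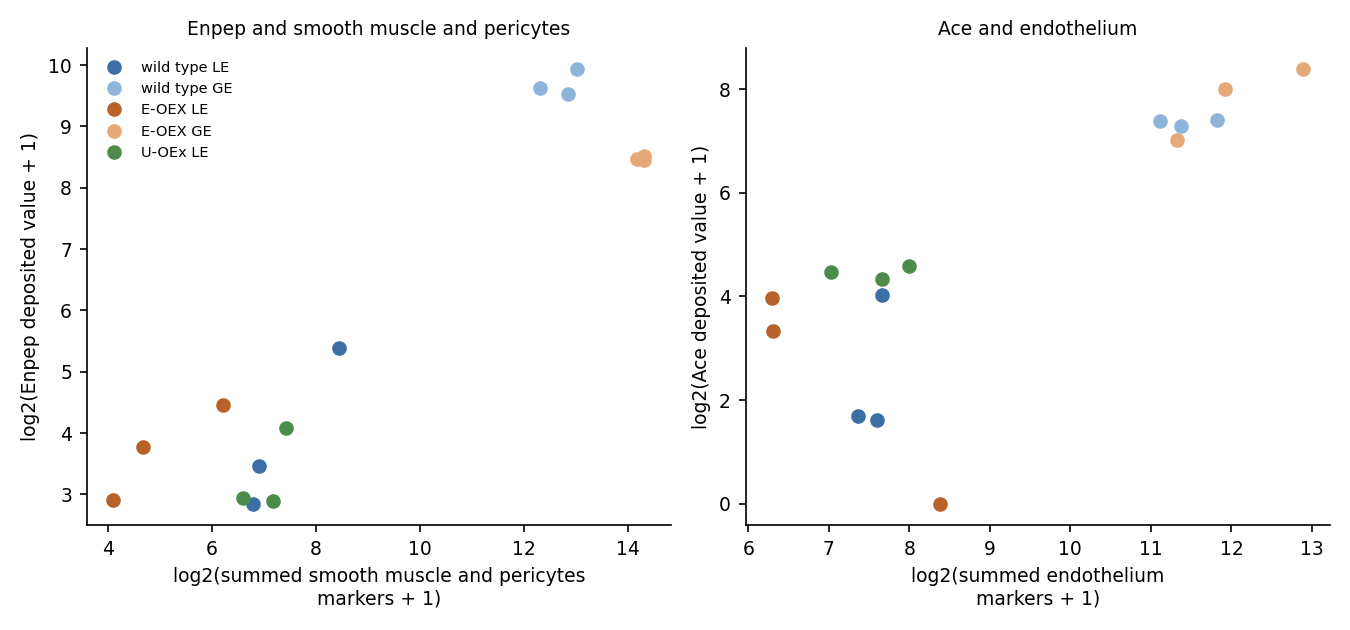
Left, log2(Enpep value + 1) against log2(summed smooth muscle and pericyte markers + 1); right, log2(Ace value + 1) against log2(summed endothelial markers + 1), with 1 point for each of 15 libraries coloured by group. In the left panel E-OEX GE lies to the right of and below wild-type GE; in the right panel the 2 glandular groups lie together at the top.

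The genes with the most similar group profile were found by the root mean square difference between centred group means of log2(value + 1). For Mme, over 3 groups and 4980 genes, they were Rp1 (1.20), Slc2a12 (1.32) and Sult1d1 (1.37). Rp1 is known as a photoreceptor gene, Slc2a12 encodes a glucose transporter and Sult1d1 a sulfotransferase. All 3 nearly vanished in U-OEx LE: Slc2a12 had 5403 ± 903 in wild-type LE and 6.68 ± 5.36 in U-OEx LE (SD, n = 3), and Rp1 had 1026 ± 501 and was at 0 in each U-OEx LE library. Sult1d1 differed in being higher in wild-type GE (14651 ± 816) than in wild-type LE (5064 ± 2084). A distance above 1 log2 unit means that no compared gene matched the Mme profile closely.

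For Enpep, over 5 groups and 2357 genes, the nearest were Ackr2 (0.23), a chemokine scavenger, Hhip (0.32), a hedgehog antagonist, and Gas6 (0.35), a ligand of TAM receptors. Gas6 had 15120 ± 2692 for wild-type GE against 7391 ± 1301 for E-OEX GE (SD, n = 3). In wild-type, E-OEX and U-OEx LE the means were 0.683, 0 and 0 for Ackr2 and 1.37, 0 and 0 for Hhip. Those of Enpep were 19.1, 13.4 and 9.72. The luminal part of the Ackr2 and Hhip profiles thus rests on values near 0, where the added 1 sets the scale. For Ace they were Htra3 (0.04), a secreted serine protease, Spon1 (0.19), a matrix protein, and Sema7a (0.27), a membrane-anchored semaphorin. Htra3 had 417 ± 213 for wild-type GE, 562 ± 71.2 for E-OEX GE, and 55.5 ± 5.85 for U-OEx LE (SD, n = 3). Enpep and Ace were 1.18 apart, so 413 of the 2357 genes, Ace included, were at least as near to Enpep as Ace was. Anpep and Dpp4 have values in 1 group and therefore no profile.

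Other peptidases moved in both directions in U-OEx LE. Of the wider list, 11 genes besides the 5 were tested against wild-type LE, of which 2 rose and 3 fell, beside 29.1% higher and 27.8% lower over all 5949 genes. Their median log2 fold change was -0.06, beside 0.09 for all genes. Ggt1, which cleaves extracellular glutathione, rose by 6.36 (SE 0.70, limma adjusted p = 0.000162), from 5.18, 2.05 and 0 in wild-type LE to 235, 173 and 269. Its relative Ggt6 went the other way, from 1443, 2791 and 1808 to 18.4, 20.4 and 15.4, which is -6.70 on the log2 scale (SE 0.31, adjusted p = 5.48e-06). Neither pair of groups overlapped, and both calls were kept without any 1 library.

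The other 3 calls were less firm. Fap, a fibroblast relative of Dpp4, rose by 2.12 (SE 0.59, limma adjusted p = 0.0161), but not past the threshold without U-OEx LE replicate 1 (2.03, adjusted p = 0.0621) or 3 (1.87, adjusted p = 0.0659). Naalad2, a relative of the glutamate carboxypeptidase Folh1, fell by 1.47 on the log2 scale (adjusted p = 0.0236), a call lost without wild-type LE replicate 3 or U-OEx LE replicate 1 or 3 (adjusted p from 0.0804 to 0.0961). Mep1a, the meprin alpha subunit, was at or under 3 reads in U-OEx LE and at least 9.79-fold lower there (adjusted p = 0.0278). That call was kept only without wild-type LE replicate 2, and its adjusted p was from 0.056 to 0.104 without wild-type LE replicate 1 or 3 or any U-OEx library.

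**Figure D4:**
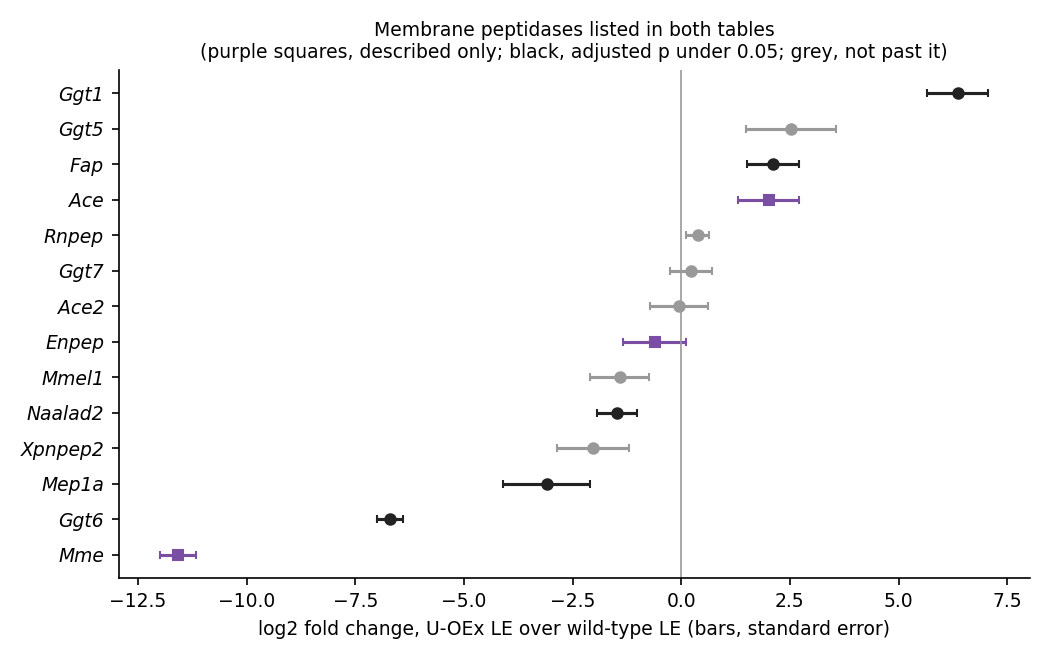
Log2 fold change of U-OEx LE over wild-type LE with its standard error for the 14 genes of the peptidase list tested in both groups; purple squares are Mme, Enpep and Ace, which are described with no test. Mme is lowest at -11.58, Ggt6 follows at -6.70 and Ggt1 is highest at 6.36.

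In E-OEX 1 other peptidase passed in each epithelium. In LE, where 5.12% of all genes rose, it was Ggt1, of 7 tested besides the 5 genes, with 87.6, 202 and 45.3 in E-OEX against 5.18, 2.05 and 0 in wild type (log2 fold change 5.01, SE 0.91, limma adjusted p = 0.0116). The groups did not overlap, as for 29.9% of genes, and the call was lost without wild-type LE replicate 3 (adjusted p = 0.051), E-OEX LE replicate 1 (0.0555) or 2 (0.0586). Ggt1 was thus higher in both Notch1-overexpressing LE groups, in comparisons that share the wild-type libraries. In GE it was Trhde, which degrades thyrotropin-releasing hormone, of 10 tested where 9.72% of all genes rose, with 30.0, 19.5 and 37.5 against 7.79, 6.64 and 3.46 (1.70, SE 0.47, adjusted p = 0.0272). Its adjusted p was from 0.0535 to 0.096 without wild-type GE replicate 2 or 3 or E-OEX GE replicate 1 or 3. Trhde and Ggt1 were also the 2 of 11 peptidases past the interaction test, beside 10.7% of all genes, at 2.46 (adjusted p = 0.0259) and -5.15 (adjusted p = 0.00696). The Ggt1 interaction was kept without any 1 library, and that of Trhde was not past the threshold without wild-type LE replicate 2 (0.0535), wild-type GE replicate 3 (0.0747), E-OEX LE replicate 2 (0.0574) or E-OEX GE replicate 3 (0.0575).

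Kel and Ggt5 were higher in U-OEx LE than in E-OEX LE, of 9 peptidases tested besides the 5, beside 15% of 4275 genes past the test and 6.97% past it as higher. Kel, a relative of Mme that activates endothelin, had 67.1, 51.5 and 98.9 against 21.0, 5.45 and 3.24 (log2 fold change 2.97, SE 0.65, limma adjusted p = 0.0215). Ggt5, which cleaves leukotriene C4, had 129, 24.0 and 186 against 26.5, 2.72 and 1.08, so its groups overlapped (3.74, SE 1.04, adjusted p = 0.0443). Kel was not past the threshold without E-OEX LE replicate 2 (adjusted p = 0.057) or U-OEx LE replicate 1 (0.104) or 3 (0.102). Ggt5 was not past it without E-OEX LE replicate 2 or 3 or U-OEx LE replicate 1 or 3 (0.113 to 0.169).

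Of 57 listed peptides and receptors that these enzymes act around, 21 were tested between U-OEx LE and wild-type LE. There 5 rose and 2 fell, beside 29.1% higher and 27.8% lower over all genes, and the median log2 fold change was 0.56 beside 0.09 for all genes. Tacr1, the receptor for the Mme substrate substance P, had 75.4, 116 and 52.8 in U-OEx LE against 0, 2.05 and 0, at least 25.2-fold higher (limma adjusted p = 0.000142). Ramp2 and Ramp1, which pair with the calcitonin-like receptor to bind adrenomedullin and calcitonin gene-related peptide, rose by 4.60 and 3.13 (adjusted p of 0.000369 and 0.00127). Vipr1, a receptor for vasoactive intestinal peptide, rose by 3.59 (adjusted p = 0.00141) and the endothelin gene Edn2 by 2.66 (adjusted p = 0.00548). These 5 calls were kept without any 1 library. Agtr1a, the main angiotensin II receptor, fell by 2.08 on the log2 scale (adjusted p = 0.0488). Its adjusted p was from 0.083 to 0.172 without wild-type LE replicate 2 or 3 or U-OEx LE replicate 1 or 3. The other gene that fell was Cxcl12, by -2.35 to -1.60 on the log2 scale without 1 library. Its call was kept in 4 of those 6 fits (adjusted p from 0.0208 to 0.0693).

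Between the glandular groups 25 of these genes were tested, of which 7 rose and 3 fell in E-OEX GE, beside 9.72% and 13.8% of all genes, with a median of 0.27 beside 0.05 for all genes. Agtr1a fell with Enpep, from 257, 183 and 355 in wild-type GE to 54.1, 46.0 and 66.5 (log2 fold change -2.66, SE 0.33, limma adjusted p = 0.00047). Edn1 rose from 265, 317 and 322 to 1520, 3557 and 2776 (2.57, SE 0.30, adjusted p = 0.000309), and Edn2 by 2.31 (adjusted p = 0.000436). The gut hormone gene Cck rose by 2.63 (adjusted p = 0.0057). The kallikrein Klk1, which releases kinins, had 3 reads or fewer per wild-type GE library, and E-OEX GE was at least 16.6-fold higher (adjusted p = 0.00217). These 5 calls were kept without any 1 library, while in a single fit over all 5 groups Agtr1a had an adjusted p of 0.119. Calca, the gene of calcitonin and calcitonin gene-related peptide, had 13.02, 558 and 229 against 1785, 943 and 1459 (-3.94, SE 1.04, adjusted p = 0.0226), and its adjusted p was 0.106, 0.0519 and 0.0598 without wild-type GE replicate 1, 2 and 3.

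In E-OEX LE, Cxcl12 and Ednrb fell, of 18 peptide and receptor genes tested, beside 5.54% of all genes. Cxcl12, a Dpp4 substrate, changed by -2.90 (SE 0.80, limma adjusted p = 0.048), a call lost without any 1 of the 6 libraries (0.0667 to 0.129). Cxcl12 was also lower in U-OEx LE than in wild-type LE, in a comparison that shares the wild-type libraries. Ednrb, an endothelin receptor, was at 0 in each E-OEX LE library and at least 2.31-fold lower (adjusted p = 0.0418), a call kept only without wild-type LE replicate 1. Between U-OEx LE and E-OEX LE, 4 of 23 tested passed, all higher in U-OEx, beside 6.97% higher and 15% either way over all genes, namely Tacr1 (4.80, adjusted p = 0.0126), Ramp3 (3.30, 0.0381), Ramp2 (3.24, 0.0106) and Ramp1 (2.78, 0.0117). The Ramp3 call was lost without any of 5 libraries (0.0994 to 0.138). Those of Tacr1 and Ramp1 were lost without U-OEx LE replicate 1 or 3 (0.0538 to 0.0775), and that of Ramp2 without replicate 1 (0.0716).

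Of 18 listed genes of the microvillus, a fold of the cell membrane, 13 were tested between U-OEx LE and wild-type LE. Whether the 5 enzymes sit on microvilli here was not measured. There 5 rose and 6 fell, beside 29.1% higher and 27.8% lower over all genes, with a median of -0.17 beside 0.09 for all genes. Cdhr5, a microvillus cadherin, fell by 2.86 on the log2 scale (limma adjusted p = 0.00612), the motor gene Myo1a by 2.61 (adjusted p = 0.00302), Rdx (radixin) by 2.42 (adjusted p = 0.00147) and Pls1 (plastin 1) by 1.93 (adjusted p = 0.000328). These 4 calls were kept without any 1 library. The actin bundler Fscn1 rose by 2.61 (adjusted p = 0.0158) and Msn (moesin) by 2.33 (adjusted p = 0.0116). Fscn1 was not past the threshold without wild-type LE replicate 3 or U-OEx LE replicate 1 or 3 (0.0505 to 0.0709), nor Msn without wild-type LE replicate 3 (0.0575). Beyond the 6 largest changes, Prom1 rose and Usp53 and Ezr fell, and these calls were kept without any 1 library. The highest adjusted p was 0.00694, 0.0189 and 0.0140, respectively. Vil1 and Eps8 also rose, but their adjusted p reached 0.112 and 0.061 without 1 library. Between the glandular groups 1 of 5 tested microvillus genes rose in E-OEX GE, beside 9.72% of all genes. It was Espn, an actin bundler, at 1.90 (SE 0.35, adjusted p = 0.00393).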

How the data were processed

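RNA of uterine epithelium was purified with an RNeasy kit and made into libraries with an NEBNext Ultra kit, per the labels' protocols. The authors' deposited values are a signal: read counts divided by 1 factor per library. That was read from the values, since dividing by the smallest step gave numbers within 0.01 of a whole read for 100% of values. Reads were recovered in this way. GRCm38 and mm10 are named in the submitters' processing notes. The aligner, counter, annotation and scaling are not given in the sources used here. Exon lengths and positions came from GENCODE M21. Within genotypes and for the interaction the deposited values were used, and between genotypes recovered reads of shared genes rescaled by TMM (edgeR 4.0.16). The test was limma 3.58.1 in R 4.3.3, with a trend, applied to log2(value + 1) where a gene's mean was at least 1, with Benjamini-Hochberg adjustment over all genes of each of 7 comparisons and a threshold of 0.05. Fold changes on this scale understate those of low genes. A group in which every library had 3 reads or fewer was set to that floor for a bound, which covers counting error only. Counts were also simulated with 1 fixed spread for all genes and with changes planted only in genes that were not low. Of genes changed by 1.5 on the log2 scale, 96% were recovered for U-OEx against wild-type LE (5954 genes). The lowest recovery was 92%, for U-OEx against E-OEX LE (4275 genes). These rates say nothing of genes with few reads or a wider spread, such as luminal Enpep and Ace.

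The 5 genes and the wider lists were chosen with earlier results of these data known. From the lists, up to 10 peptidases and up to 6 genes of each other list with the largest change past the threshold were named per comparison, and the 3 nearest profiles of each gene among genes with a mean of at least 10. Alternatives were other scalings, pseudocounts, filters, edgeR, DESeq2 1.42.0, a replicate block, 1 fit over all groups and leaving out each library.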

Additional observations from a re-analysis of the deposited data

Results flagged for a closer look

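A genotype effect that differs between the epithelia was not resolved for Enpep or Ace. By the same interaction term (E-OEX against wild type, GE against LE, log2 scale, limma) it passed the test for 2 of 11 other peptidases and 5 of 25 peptide and receptor genes, beside 10.7% of all 2933 genes. Of the peptidases, Trhde had 2.46 (SE 0.63, adjusted p = 0.0259) and Ggt1 -5.15 (SE 1.02, adjusted p = 0.00696). Of the peptides and receptors, Edn1 had 4.48 (SE 0.67, adjusted p = 0.00163), Klk1 4.17 (SE 1.09, adjusted p = 0.0274), Cck 3.61 (SE 0.82, adjusted p = 0.0145), Cxcl12 3.47 (SE 0.80, adjusted p = 0.015) and Ednrb 3.16 (SE 0.81, adjusted p = 0.0249). Edn1 had 874, 1460 and 1029 in wild-type LE and 826, 195 and 404 in E-OEX LE, and it rose in E-OEX GE. The Trhde call was lost without wild-type LE replicate 2, wild-type GE replicate 3, E-OEX LE replicate 2 or E-OEX GE replicate 3 (adjusted p from 0.0535 to 0.0747). The Klk1 call was lost without wild-type LE replicate 3, wild-type GE replicate 2 or 3, E-OEX LE replicate 2 or E-OEX GE replicate 1 (0.05 to 0.081), that of Cxcl12 without wild-type GE replicate 3 (0.0504), and that of Ednrb without any 1 wild-type GE library or E-OEX GE replicate 2 or 3 (0.0536 to 0.0735).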

How the results depend on the processing

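The Enpep fall in E-OEX GE kept its direction under all 10 settings other than leaving out a library, and its call under 9. In 1 fit over all 5 groups it was -1.61 (adjusted p = 0.160). The Ace differences that had not passed the test changed sign: for LE to 0.0625 with a pseudocount of 10, 0.15 with edgeR and 0.19 with DESeq2; for GE to 0.45 on the deposited scale, 0.053 with edgeR, 0.0695 with DESeq2 and 0.0506 in 1 fit over all groups; and for the interaction to -0.0251 with edgeR. The cause was not tested. Without 1 library Enpep ran from -0.83 to 0.33 and Ace from -0.79 to 1.20 between E-OEX LE and wild-type LE, Ace from -0.23 to 0.31 between the glandular groups, and the Ace interaction from -0.75 to 1.23.

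Some descriptions moved. Mme in U-OEx LE was -10.82 with a pseudocount of 10, and its GE against LE value was -1.75 with DESeq2. The Ace glandular excess in wild type was 3.48 with a pseudocount of 10. That of Enpep in E-OEX was 3.62 with quantile normalization, 3.74 with DESeq2 and 3.81 in 1 fit over all groups. The Ezr change in U-OEx LE turned to 0.10 with quantile normalization (adjusted p = 0.675). With another scaling, pseudocount, filter, tool or block, further calls named above were lost. In U-OEx LE these were Agtr1a, Naalad2 and Vil1, and between U-OEx and E-OEX LE Ggt5 and Ramp3. In E-OEX LE they were Cxcl12 and Ednrb, and in E-OEX GE Calca. In the interaction they were Trhde, Klk1, Cck, Cxcl12 and Ednrb.

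Counts over all genes moved more. For E-OEX against wild type, DESeq2 called 456 genes in LE. In 1 fit over all 5 groups, which tests the 2819 genes listed in every table, the counts were 616 (E-OEX LE), 285 (E-OEX GE), 1274 (U-OEx LE), 2486 (wild-type GE against LE) and 2264 (E-OEX GE against LE). DESeq2 called 501 genes for the interaction. Without 1 library the counts ran from 56 to 322 for E-OEX LE, from 362 to 728 for E-OEX GE, from 60 to 904 for U-OEx against E-OEX LE, and from 179 to 449 for the interaction.

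Same-numbered libraries were not treated as pairs. The correlations of their deviations from the group means ran from -0.00629 to 0.0947 between wild-type GE and LE. Between E-OEX GE and LE they ran from -0.119 to 0.143. With 3 libraries per group these values cannot exclude pairing of GE and LE. Between genotypes the lowest was -0.284 for E-OEX against wild-type LE and 0.0149 for the glandular groups. With the replicate block 292 genes were called in LE, 718 in GE, 3182 for U-OEx against wild type, 612 for U-OEx against E-OEX and 314 for the interaction, 6187 for wild-type GE against LE and 4374 for E-OEX GE against LE, and Enpep in GE stayed at -1.68 (adjusted p = 0.000821). The wild-type and E-OEX tables hold selected genes, so their full depth is unknown, and luminal Enpep and Ace rest on few reads.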
